A study of Mus musculus with 6 samples.

Results

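Tenascins, thrombospondins, periostin, osteopontin and SPARC were followed here in mouse skin fibroblasts (MSFs) driven into senescence. The 10 genes were the rows named Tnn, Tnc, Tnr, Tnxb, Thbs1, Thbs2, Thbs4, Postn, Spp1 and Sparc among the 22162 genes of the expression table. The list was chosen by the readout: 2 of its genes, Tnn and Spp1, had higher normalized counts after tamoxifen (TAM), and the rest are matricellular genes of the same kind. The values of these 2 genes are therefore described without a test. Each of the 10 rows carried the Ensembl identifier that the mouse gene tables pair with its symbol. The MSF line came from digested dorsal skin of a FASST mouse, and the labels give the strain as FVB/N. FASST mice carry a TAM-dependent Cre-ERT2 recombinase driven by the pro-alpha 2(I) collagen promoter and a p27Kip1 allele at the ROSA26 locus that recombination switches on, and both groups of cells carry both alleles. Poly(A) RNA was sequenced from 3 samples that the labels call senescent, treated with 10 µM TAM, and from 3 called non-senescent, given the ethanol vehicle (EtOH). All were cultured at 3% oxygen and 5% carbon dioxide. The paper's methods give 48 h as the length of the TAM treatment and no time at which the RNA of these cells was taken. The methods describe a single mouse as the source of the line, and the labels name no separate animals or cultures behind the samples, so p-values measure only the spread between these samples, which may be technical. Both TAM itself and the activated allele separate the groups and cannot be told apart.

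Matricellular proteins are secreted into the extracellular matrix but modulate how cells attach and signal rather than bearing load. Tenascins are large multimeric glycoproteins; tenascin C and tenascin N (also called tenascin W) are associated with development, wound repair and tumour stroma, tenascin R with the nervous system, and tenascin X with collagen organization in mature connective tissue. Thrombospondins 1 and 2 form trimers that restrain angiogenesis, and thrombospondin 1 can also activate latent TGF-β. Periostin and SPARC bind collagen and influence fibril assembly, and osteopontin, encoded by Spp1, is a phosphorylated ligand of integrins and CD44 that is also made by bone cells and macrophages.

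The sums per library lay between 14952367 and 17314953 normalized counts, and the values are counts that the authors had adjusted between libraries, not reads. Cdkn1b, the endogenous gene of p27Kip1, averaged 2118 ± 855 (SD, n = 3) normalized counts in the EtOH libraries and 1616 ± 90.4 (SD, n = 3) in the TAM libraries. The paper does not say whether transgene reads were counted on this row, so it may not measure the activation. All 10 fibroblast markers examined were detected in every library, and their summed level was between 1531770 and 1680760 normalized counts in the EtOH libraries and between 684994 and 1127540 in the TAM libraries. Most of that sum was Col1a1, Col1a2 and Col3a1. For 6 of the 10 markers, these collagens with Dcn, Lum and Fap, every TAM value lay below every EtOH value, against 11.4% of all genes tested. Dcn, Lum and Fap had log2 fold changes of −2.37, −2.38 and −1.15 (adjusted p = 0.163, 0.236 and 0.258 in limma). Pdgfra, with overlapping groups, had a log2 fold change of −1.05. Not every marker followed the sum, since every TAM value of Thy1 lay above every EtOH value (log2 fold change 1.36, adjusted p = 0.295 in limma), against 9.19% of all genes tested. Pdgfrb and Vim had log2 fold changes of 0.09 and −0.16. In bulk RNA, fewer cells of a type and less RNA per cell cannot be told apart. A filter of 1 c.p.m., or 16.2 normalized counts, in at least 3 of the 6 libraries kept 11877 genes, and 8 of the 10 matricellular genes were among them. Differences were fitted with limma on log2(normalized counts + 1), and p-values were adjusted over the 11877 genes by the Benjamini-Hochberg method. Because samples with the same replicate number deviated together, the fit was also made with the replicate number as a block.

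Tnn, Tnc and Spp1 were the matricellular genes with the largest differences, and all 3 were higher in the TAM library of every same-numbered pair. Tnr, at a few counts, and Thbs1 were also higher in each pair. Tnxb, Postn, Sparc and, at a few counts, Thbs4 were lower in every pair. Of the 6 genes that were tested only Tnc passed, in the fit with the replicate block. Of all genes tested, 18.3% were higher and 23.6% lower in every pair. The 10 genes together took from 3.44% to 4.30% of the normalized counts of the EtOH libraries and from 4.10% to 4.66% of those of the TAM libraries. Most of that share was Sparc, Thbs1, Thbs2 and Postn, so it says little about the genes that moved several-fold. Tnn, Spp1 and Tnxb each took at most 0.0167% of any library, and Tnc from 0.0146% to 0.880%.

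**Figure D1:**
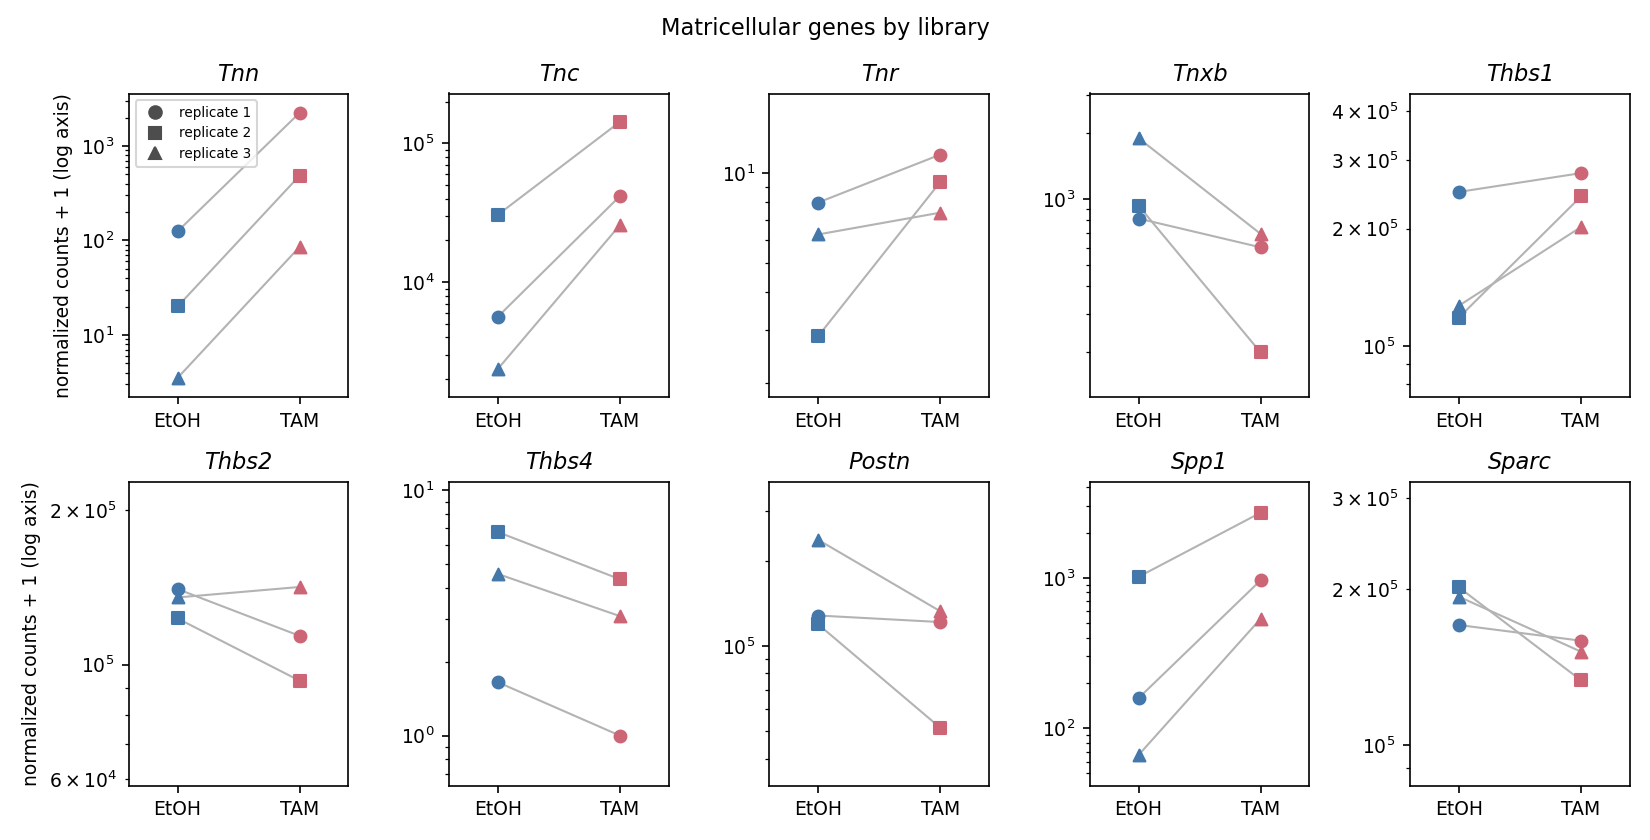
Normalized counts plus 1 (log axis, with a separate range for each gene) of the 10 matricellular genes in the 3 EtOH (blue) and 3 TAM (red) libraries, with grey lines joining libraries of the same replicate number. Tnn, Tnc and Spp1 climb in all 3 pairs, Tnn along nearly parallel lines and Tnc and Spp1 least steeply in replicate 2. Thbs1 and, at a few counts, Tnr also climb in all 3. Tnxb, Postn, Sparc and, at a few counts, Thbs4 descend in all 3.

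Tnn (ENSMUSG00000026725; chromosome 1 of mm9, 162015165 to 162077911) showed the widest range of the family. It had 124, 19.0 and 2.51 normalized counts in EtOH replicates 1, 2 and 3 and 2248, 485 and 84.6 in TAM replicates 1, 2 and 3. The groups overlapped, since EtOH replicate 1 stood above TAM replicate 3, and the value of EtOH replicate 3 rests on a few reads. Within the same-numbered pairs Tnn was 18.1-fold, 25.5-fold and 33.7-fold higher after TAM, while replicate 1 was the highest and replicate 3 the lowest in both groups. The fitted log2 fold change was 4.46, with a standard error (SE) of 1.52 without the replicate block and of 0.24 with it.

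Tnc (ENSMUSG00000028364; chromosome 4, 63620819 to 63681760) had 5644, 30603 and 2373 normalized counts in EtOH replicates 1, 2 and 3. In the TAM libraries it had 41697, 142976 and 25789. The groups overlapped, because EtOH replicate 2 was above TAM replicate 3, and replicate 2 was highest in both groups. The pairs differed by 7.39-fold, 4.67-fold and 10.9-fold, a fitted log2 fold change of 2.85. Without the block this did not pass the test (SE 1.00, adjusted p = 0.290 in limma), and with the replicate block it did (SE 0.30, adjusted p = 0.0285 in limma). With the block and 1 pair left out at a time, the adjusted p from limma was 0.0308 without replicate 1, 0.00531 without replicate 2 and 0.0682 without replicate 3, so the call is lost without replicate 3. Of the genes tested, 0.623% had a log2 fold change at or above that of Tnc. A long non-coding RNA gene on the other strand, 8030451A03Rik, overlaps 2.34% of the exon bases of Tnc, and the strand setting of the counting is not given in the sources used here.

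Spp1 (ENSMUSG00000029304; chromosome 5, 104864137 to 104870067) had 158, 1016 and 65.4 normalized counts in EtOH replicates 1, 2 and 3 and 963, 2714 and 534 in TAM replicates 1, 2 and 3. Again the groups overlapped, through the high EtOH replicate 2, and each pair was higher after TAM, by 6.11-fold, 2.67-fold and 8.17-fold. The fitted log2 fold change was 2.34, with a standard error of 1.02 without the block and 0.33 with it. Macrophages also make osteopontin. Of the 8 macrophage markers measured, 4 had every TAM value above every EtOH value. Only Lyz2 and Csf1r of these were among the 4 markers that passed the filter, and 9.19% of all genes tested had such values. Lyz2, the myeloid lysozyme, lay between 35.2 and 62.9 normalized counts after EtOH and between 103 and 159 after TAM (log2 fold change 1.48, adjusted p = 0.141 in limma and 0.0864 when blocked), and Csf1r between 73.4 and 75.7 and between 90.6 and 226. The others of the 4, Mrc1 and Itgam, had at most 13.4 normalized counts and did not pass the filter. Emr1 was at 0 in all libraries, and Ptprc, the pan-leukocyte CD45 gene, was between 0 and 5.01. The summed level of the 8 macrophage markers was between 205 and 527 normalized counts in the EtOH libraries and between 373 and 561 in the TAM libraries, where the overlap came from Cd68 at 352 in EtOH replicate 2, and the part of these markers in the Spp1 difference was not tested. The genes next to Spp1 in the family of bone sialoproteins were near or at 0: Ibsp, Mepe and Dspp in all 6 libraries, and Dmp1 in all but TAM replicate 3, which had 0.79 normalized counts.

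Across libraries, Tnc and Spp1 traced nearly the same pattern. Likeness was measured as the root mean square distance between the 6 log2 values of 2 genes after each gene was centred on its own mean, over 11876 other genes, and it includes the treatment difference for which Spp1 was chosen. Tnc was the nearest of all these genes to Spp1, at a distance of 0.28, against a median of 1.82. Next to Spp1 after Tnc came Atoh8, a transcription factor, at 0.48, Dusp4, a MAP kinase phosphatase, at 0.48, Serpina3g at 0.50 and Foxs1 at 0.54. Serpina3g belongs to a cluster of similar serpin genes whose reads can be shared, and Foxs1 had at most 51.9 normalized counts. Tnn followed another pattern, with Tnc only at place 156 by distance (2.19) and Spp1 at place 204 (2.29). Nearest to Tnn stood Kif1a, a kinesin motor, at 0.45, then Serpine2, an inhibitor of thrombin and plasminogen activators, at 0.79, Rab3c at 0.85, Cyp1b1 at 0.97 and Pcsk5, a proprotein convertase, at 1.07. The 2 patterns differ in their replicates: in both groups Tnn and Kif1a were highest in replicate 1, and Tnc and Spp1 in replicate 2.

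**Figure D2:**
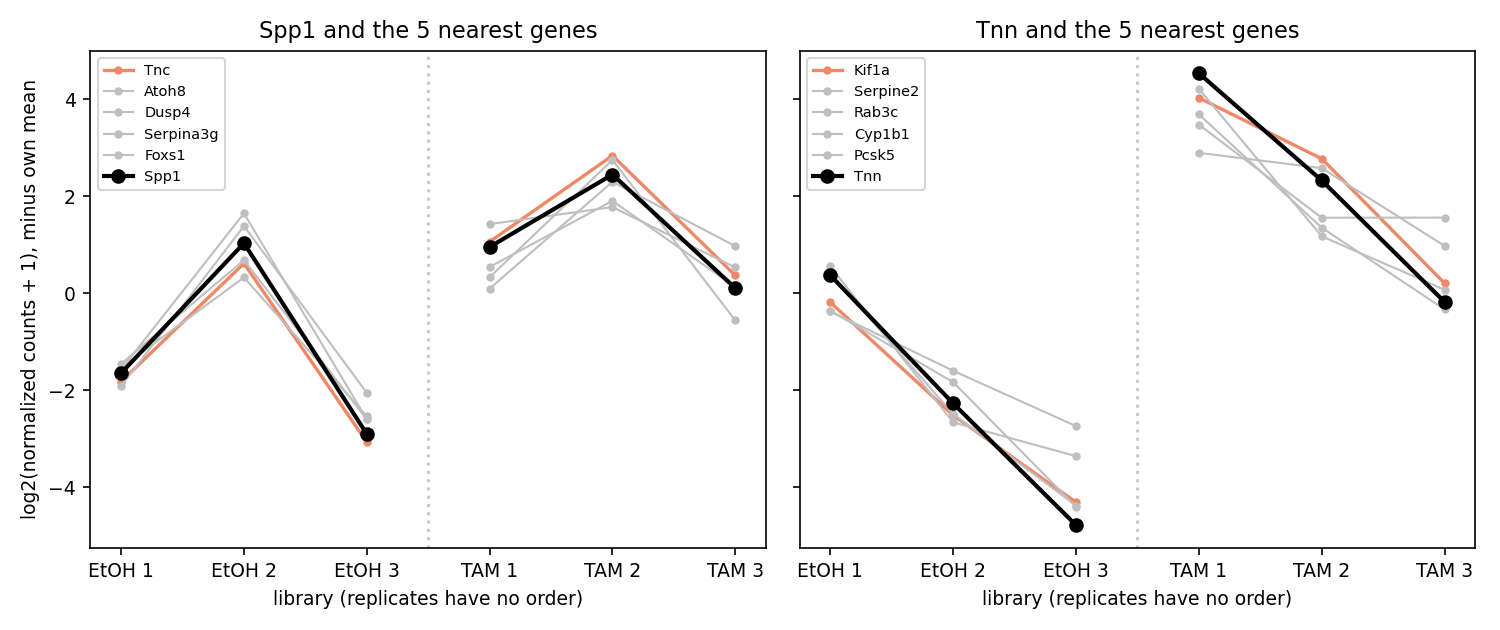
Log2(normalized counts + 1) minus each gene's own mean in the 6 libraries for Spp1 (left, black) and Tnn (right, black) with the 5 nearest genes of each, the nearest in orange. Tnc lies almost on Spp1, with replicate 2 the highest of each group, and Kif1a on Tnn, with replicate 1 the highest.

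The start regions of the genes that define these patterns, and that of Tnxb as the gene of the family with the most negative log2 fold change, are given from RefSeq. RefSeq start regions, from 250 bases before to 50 bases after a start site, matched 9 of the 10 genes on GRCm38.p6. They run 5′ to 3′ on the gene's own strand, with any of 9 searched motifs in capitals. Those shown are Tnn (chr1:160153526-160153825, minus strand), Tnc (chr4:64046887-64047186, minus strand, the inner of its 2 listed starts), Spp1 (chr5:104434861-104435160, plus strand, the outer of its 2 starts) and Tnxb (chr17:34670285-34670584, plus strand).
Tnn: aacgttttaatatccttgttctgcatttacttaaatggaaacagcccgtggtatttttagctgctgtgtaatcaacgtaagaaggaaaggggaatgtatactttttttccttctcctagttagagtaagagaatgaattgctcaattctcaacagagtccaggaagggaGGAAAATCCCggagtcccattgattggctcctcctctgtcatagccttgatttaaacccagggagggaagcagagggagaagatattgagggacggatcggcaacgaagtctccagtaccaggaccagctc
Tnc: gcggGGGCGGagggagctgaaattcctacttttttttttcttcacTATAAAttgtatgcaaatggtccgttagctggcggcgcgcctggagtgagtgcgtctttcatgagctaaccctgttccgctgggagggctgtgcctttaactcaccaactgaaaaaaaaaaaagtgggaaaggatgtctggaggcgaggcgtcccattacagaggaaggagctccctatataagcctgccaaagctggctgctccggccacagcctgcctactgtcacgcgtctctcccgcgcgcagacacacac
Spp1: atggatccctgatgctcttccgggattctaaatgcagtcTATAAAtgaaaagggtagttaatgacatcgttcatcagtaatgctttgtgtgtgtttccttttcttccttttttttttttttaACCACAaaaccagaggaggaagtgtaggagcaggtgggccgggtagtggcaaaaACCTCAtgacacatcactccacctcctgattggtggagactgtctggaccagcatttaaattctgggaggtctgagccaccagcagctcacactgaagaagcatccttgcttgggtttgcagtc
Tnxb: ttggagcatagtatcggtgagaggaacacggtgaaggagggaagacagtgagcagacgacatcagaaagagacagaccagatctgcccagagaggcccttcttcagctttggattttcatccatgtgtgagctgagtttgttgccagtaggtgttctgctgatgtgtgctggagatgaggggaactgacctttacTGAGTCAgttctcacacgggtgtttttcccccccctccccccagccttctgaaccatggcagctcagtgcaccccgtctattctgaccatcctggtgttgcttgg
The letters searched on both strands were TGANTCA for AP-1, TGACGTCA for CRE, TGNGGT for RUNX, TTCNNNGAA for STAT, TATAAA for a TATA box, TTGCGCAA for C/EBP, CACGTG for an E-box and GGGCGG for a GC box, and an NF-κB motif was searched as well. None of the matches shown overlap. In the Tnn region the capitals mark an NF-κB match on the other strand, at position −81 from the start, a motif held by 1.63% of all 32851 start regions in the table. Tnc held a GC box at position −246, found in 35.7% of all regions, and a TATA match at position −205, found in 13.6%. Spp1 held a TATA match at position −211 and a pair of RUNX matches on the other strand, at positions −128 and −74, a motif present in 45.8% of all regions. Tnxb held an AP-1 match at position −55, where 7.81% of regions have one. These matches describe the letters of the windows. Each sequence was also found exactly once on its mm9 chromosome. On mm9 the Tnc start lies at position −26210 relative to the 5′ end of the annotated gene, outside the coordinates of its row in the table. The Tnn window, at 162083657 to 162083956 of mm9 chromosome 1, also lies beyond the end of its row.

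Among the other tenascins, Tnxb (ENSMUSG00000033327; chromosome 17, 34807480 to 34856572) had 814, 932 and 1895 normalized counts in EtOH replicates 1, 2 and 3 and 601, 199 and 693 in TAM replicates 1, 2 and 3. All values of the TAM group lay below the EtOH group, and EtOH replicate 3 was the highest library. The fitted log2 fold change was −1.37, and 1.75% of genes tested had one at or below it. The difference did not pass the test without the block (SE 0.53, adjusted p = 0.329 in limma) or with it (SE 0.35, adjusted p = 0.159 in limma). With the block and without replicate 1 of both groups the log2 fold change was −1.84 (adjusted p = 0.0413 in limma), without replicate 2 it was −0.94 (0.0940) and without replicate 3 −1.33 (0.390), all settings chosen after seeing the data. Set against each other per kilobase of exon, Tnc was 11.6, 54.8 and 2.09 times the level of Tnxb in EtOH replicates 1, 2 and 3. In TAM replicates 1, 2 and 3 the ratio was 116, 1202 and 62.1. Tnr (ENSMUSG00000015829; chromosome 1, 161667641 to 161854528), the tenascin of the nervous system, had between 1.86 and 6.99 normalized counts in the EtOH libraries and between 6.39 and 10.6 in the TAM libraries and did not pass the filter. Tnr lies 161 kb from Tnn, with 3 genes of the table between them. In a fit of all genes above 0 without the filter Tnr had a log2 fold change of 0.83 (SE 0.52, adjusted p = 0.559 in limma).

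Of the thrombospondins, Thbs1 (ENSMUSG00000040152; chromosome 2, 117937612 to 117952869) was higher in each TAM library than in its numbered partner, with overlapping groups. Its normalized counts were 248515, 118405 and 126976 in EtOH replicates 1, 2 and 3 and 277631, 241912 and 201967 in TAM replicates 1, 2 and 3, with EtOH replicate 1 already at the level of the TAM group. The log2 fold change of 0.62 did not pass the test (SE 0.45, adjusted p = 0.606 in limma and 0.486 when blocked). Thbs2 (ENSMUSG00000023885; chromosome 17, 14802507 to 14831269) had 140271, 122984 and 135132 normalized counts after EtOH and 113780, 93086 and 141617 after TAM in replicates 1, 2 and 3. The groups overlapped, and 1 of the 3 pairs was higher after TAM (log2 fold change −0.21, SE 0.34, adjusted p = 0.835 in limma and 0.788 when blocked). Per kilobase, Thbs1 was 1.73, 0.94 and 0.92 times Thbs2 in EtOH replicates 1, 2 and 3 and 2.38, 2.54 and 1.39 times Thbs2 in TAM replicates 1, 2 and 3. Thbs4 (ENSMUSG00000021702; chromosome 13, 93521545 to 93564773), a pentameric thrombospondin of tendon and muscle, had at most 5.76 normalized counts in any library, was listed at 0 in TAM replicate 1, and did not pass the filter (log2 fold change −0.64 without the filter, SE 0.72, adjusted p = 0.742 in limma).

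Periostin and SPARC were among the most abundant products of these cells and did not pass the test. Postn (ENSMUSG00000027750; chromosome 3, 54165031 to 54194956) had 128066, 119157 and 236751 normalized counts in EtOH replicates 1, 2 and 3 and 121458, 51456 and 132573 in TAM replicates 1, 2 and 3. TAM replicate 2 was the lowest library, EtOH replicate 3 the highest, and the groups overlapped (log2 fold change −0.71, SE 0.51, adjusted p = 0.60 in limma and 0.420 when blocked). Sparc (ENSMUSG00000018593; chromosome 11, 55208002 to 55233400) had 170570, 201742 and 193522 normalized counts after EtOH and 159044, 133311 and 151466 after TAM in replicates 1, 2 and 3. The TAM values all lay below the EtOH values, yet the step was small (log2 fold change −0.35, SE 0.35, adjusted p = 0.714 in limma and 0.667 when blocked).

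Of the 8 genes of the family other than Tnn and Spp1, 6 were tested. Without the block 0 of the 6 had an adjusted p under 0.05 in limma, where 0.244% of all genes tested did (0.168% higher and 0.0758% lower). An unadjusted p under 0.05 was found for 2, Tnc (higher) and Tnxb (lower), against 13.4% of all genes (6.67% higher and 6.7% lower). With the replicate block 1 of the 6, Tnc, had an adjusted p under 0.05, against 1.62% of all genes (1.0% higher and 0.615% lower). Blocked and unadjusted, Tnc and Tnxb again had a p under 0.05, against 17% of all genes (8.64% higher and 8.32% lower). The groups did not overlap for 2 of the 6, Tnxb and Sparc, both lower after TAM, against 20.6% of all genes in either direction, 9.19% with the TAM values above and 11.4% with them below. The standard errors differed by design: the block reduced that of Tnc from 1.00 to 0.30, while that of Sparc stayed at 0.35.

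**Figure D3:**
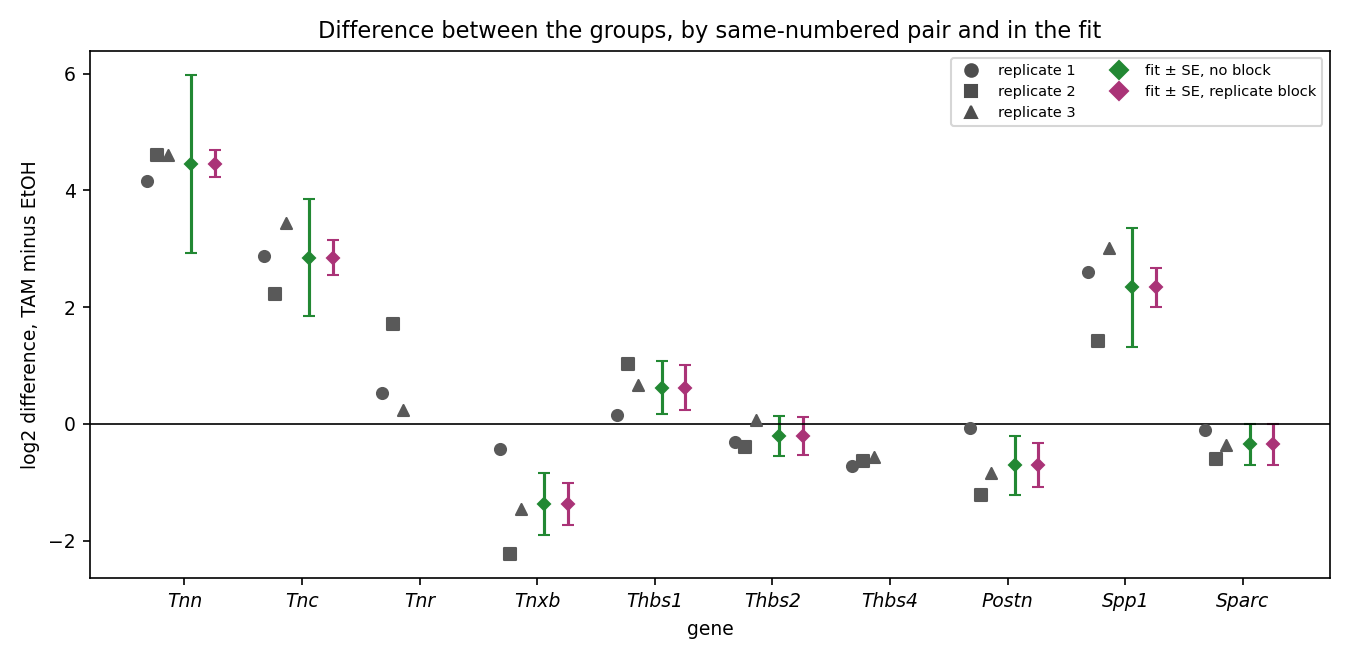
Log2 difference of normalized counts plus 1, TAM minus EtOH, for each gene. Grey symbols are the 3 same-numbered pairs, and diamonds are the fitted log2 fold change with its standard error without the block (green) and with it (purple), drawn for the 8 genes that passed the filter. For Tnn the standard error shrinks from 1.52 to 0.24, and for Sparc both are 0.35.

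How much of each gene's spread went with the treatment and how much with the replicate number differed within the family. Of the total sum of squares of the log2 values, treatment took 55.0% for Tnn, 54.2% for Tnc and 43.0% for Spp1, and the replicate number took 44.9%, 44.1% and 53.4%. What was left over was 0.117%, 1.65% and 3.58%, so in these 6 libraries the log2 values were close to the sum of a treatment step and a replicate step. Over all genes tested the median shares were 20.9% for treatment, 37.3% for the replicate number and 24.5% for the rest. Nothing is read from the treatment or leftover shares of Tnn and Spp1 against these medians. Both genes were chosen for being higher after TAM, and a large treatment share lowers the share left over. Sparc was at the other end, with 73.5% for treatment and 1.86% for the replicate number. For Thbs2 and Postn the replicate number took more than treatment, 52.3% against 25.0% and 56.2% against 30.3%.

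**Figure D4:**
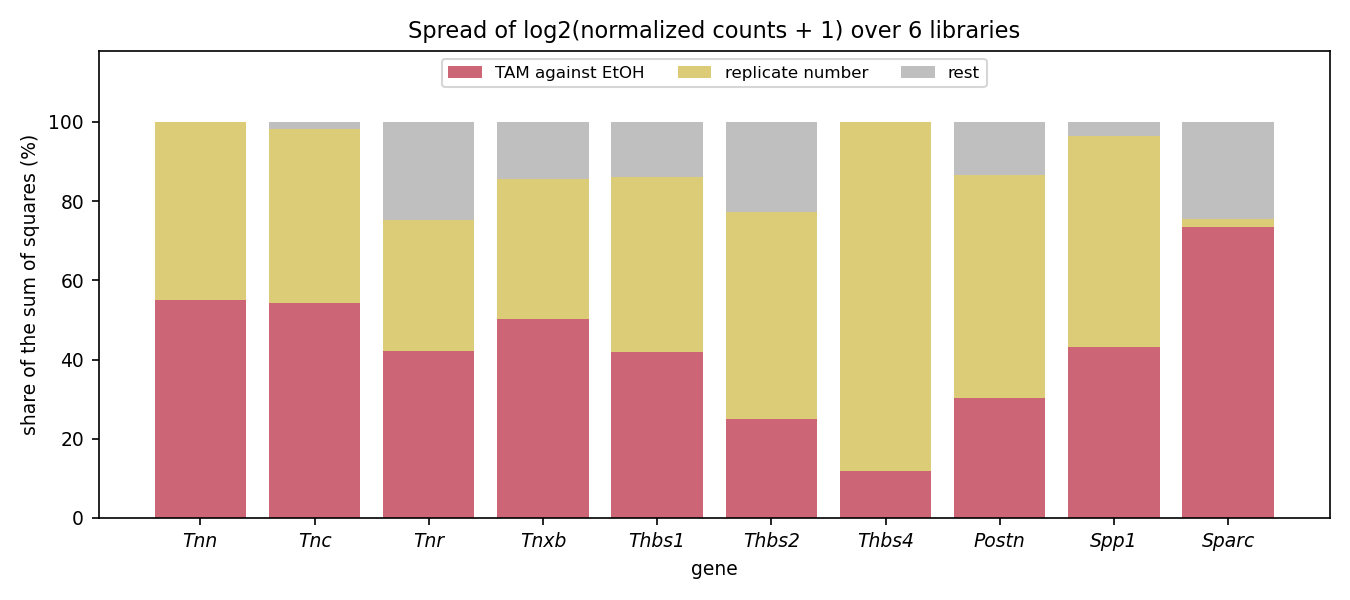
Share of the sum of squares of log2(normalized counts + 1) over the 6 libraries, in percent, that goes with treatment (red), with the replicate number (yellow) and with neither (grey). Treatment and the replicate number fill nearly all of the bars of Tnn, Tnc and Spp1, and the replicate number takes 1.86% for Sparc. The bars of Tnr and Thbs4 rest on under 11 normalized counts.

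As levels per kilobase of exon, the family spanned over 4 orders of magnitude. In the EtOH libraries Sparc stood first, with 56018 ± 4798 (SD, n = 3) normalized counts per kilobase. It was followed by Thbs1 with 27109 ± 11983, Thbs2 with 22405 ± 1498 and Postn with 20582 ± 8353, which did not differ beyond their spread. Tnc came next with 1714 ± 2056, then Spp1 with 251 ± 318, Tnxb with 96.8 ± 47.3 and Tnn with 8.33 ± 11.3. Thbs4 and Tnr were at about 1 normalized count per kilobase. In the TAM libraries Sparc (43938 ± 3927) and Thbs1 (39602 ± 6233) overlapped at the top, ahead of Thbs2 (19599 ± 4109), Postn (12992 ± 5611) and Tnc (9343 ± 8465). Spp1 followed with 852 ± 701, and Tnn (161 ± 198) now averaged more than Tnxb (39.7 ± 21.0). That order of Tnn and Tnxb held in TAM replicates 1 and 2, at 8.05 and 5.26 times, but not in TAM replicate 3, at 0.26 times. Among the genes of the table with a known length, Sparc ranked between 4 and 8 in every library and Thbs1 between 5 and 24, while Tnc ranged from 2551 in its lowest library to 19 in its highest.

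The surroundings of the genes in the genome were looked at next, with a window of 500 kb chosen after seeing the data. Around Tnn 4 neighbouring genes were tested, with log2 fold changes from −0.24 to 0.41. Around Spp1 the 6 tested neighbours ranged from −0.53 to 0.12, and around Tnc both tested neighbours were near 0, at −0.07 and −0.06. In the windows of Tnn, Tnc and Spp1 0 neighbours had an adjusted p under 0.05 in limma, without or with the block, against 0.244% and 1.62% of all genes. Around the other genes the log2 fold changes reached further, from −2.10 (Gpx3) near Sparc, from −1.63 (Bmf) to 1.49 (Gpr176) near Thbs1 and from −1.25 (Ager) to 1.39 (Psmb8) near Tnxb, and there too 0 neighbours passed, leaving aside Tnn, which lies in the window of Tnr and is given without a test.

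Genes that work with the family were taken from 6 lists, shown with their medians in the plot of log2 fold changes by list. Without the block none of their tested genes had an adjusted p under 0.05 in limma, and the counts below are given with the replicate block, where 1.62% of all genes were called. Over all genes tested the median log2 fold change was −0.03.

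Among 14 relatives of the same protein families 7 were tested, 1 was higher and 6 were lower by sign, with a median log2 fold change of −0.54. Without the block 1 of these 7 was lower at an unadjusted p under 0.05, against 6.7% of all genes, and with it 1 gene, Spock3, fell. Spock3, a testican related to SPARC, had 90.9, 98.3 and 236 normalized counts in EtOH replicates 1, 2 and 3 and 2.62, 6.69 and 13.3 in TAM replicates 1, 2 and 3. Its groups were far apart, with a log2 fold change of −4.14 (SE 0.62, adjusted p = 0.0628 in limma and 0.0212 when blocked).

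In the list of 15 other matricellular genes, which holds the CCN family and the fibulins, 13 were tested, with a median log2 fold change of 0.27. None had an adjusted p under 0.05 in limma with the block, and 3 of 13 were higher at an unadjusted p under 0.05 without it, against 6.67% of all genes. Wisp2, also known as CCN5, averaged 429 ± 75.0 (SD, n = 3) normalized counts after EtOH and 1002 ± 21.8 (SD, n = 3) after TAM, with no overlap (log2 fold change 1.24, adjusted p = 0.0628 in limma and 0.0509 when blocked). Nov, or CCN3, and Mgp, a matrix inhibitor of calcification, had the most negative values, −0.99 and −0.84.

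Of 21 receptors and co-receptors of the family 17 were tested, with a median log2 fold change of 0.32. None passed limma's test with the block, and 1 of 17 was higher at an unadjusted p under 0.05 without it, against 6.67% of all genes. That gene, Itga9, is the integrin chain that binds tenascin C and osteopontin. It had 58.4, 47.6 and 22.9 normalized counts in EtOH replicates 1, 2 and 3 and 141, 208 and 131 in TAM replicates 1, 2 and 3, so every TAM value was above every EtOH value (log2 fold change 1.94, SE 0.40, adjusted p = 0.131 in limma and 0.0667 when blocked). Cd44, another osteopontin receptor, had a log2 fold change of 1.06 and was higher in all 3 pairs, by 1.20-fold, 2.97-fold and 2.58-fold, with replicate 2 the highest of each group (SE 1.05 and adjusted p = 0.708 in limma without the block, SE 0.29 and adjusted p = 0.174 with it). Itga4 and Cd47, a thrombospondin receptor, had log2 fold changes of −0.83 and −0.26.

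All 12 matrix partners, collagens, fibronectin and the enzymes that mature collagen, were tested, and their median log2 fold change was −0.71. In limma with the block 0 passed, 4 of 12 were lower at an unadjusted p under 0.05 without it, against 6.7% of all genes, and for 7 the TAM values all lay below the EtOH values, against 11.4% of all genes. Col14a1, a fibril-associated collagen that binds tenascin X, averaged 626 ± 227 (SD, n = 3) normalized counts after EtOH and 97.5 ± 65.6 (SD, n = 3) after TAM (log2 fold change −2.98, adjusted p = 0.162 in limma and 0.105 when blocked). Col6a1 had a log2 fold change of −1.42 (adjusted p = 0.160 in limma), and Col12a1 and Bmp1 had the most positive values, 0.88 and 0.34, and did not pass the test.

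Proteases known to cut family members numbered 12, of which 9 were tested. With the block 2 of them rose, Mmp13 and Mmp3, a collagenase and a stromelysin, and the median log2 fold change of the list was −0.09. Mmp13 had 41.1, 80.1 and 0.74 normalized counts in EtOH replicates 1, 2 and 3 and 1042, 1045 and 186 in TAM replicates 1, 2 and 3 (log2 fold change 5.02, SE 1.44, adjusted p = 0.221 in limma and 0.0359 when blocked). The value of EtOH replicate 3 was the smallest above 0 in that library, so the size of the log2 fold change rests in part on very few reads. By pair Mmp13 was 25.3-fold, 13.1-fold and 251.5-fold higher after TAM. Mmp3 had a log2 fold change of 3.59 (adjusted p = 0.103 in limma and 0.0237 when blocked). Of the 10 TGF-β ligands, receptors and latent binding proteins 1 rose with the block, Ltbp2, a matrix protein of the latent TGF-β binding family. It had 104, 670 and 231 normalized counts in EtOH replicates 1, 2 and 3 and 1040, 3444 and 714 in TAM replicates 1, 2 and 3 (log2 fold change 2.43, SE 0.79, adjusted p = 0.262 in limma and 0.0462 when blocked). The median log2 fold change of these 10 genes was −0.21.

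**Figure D5:**
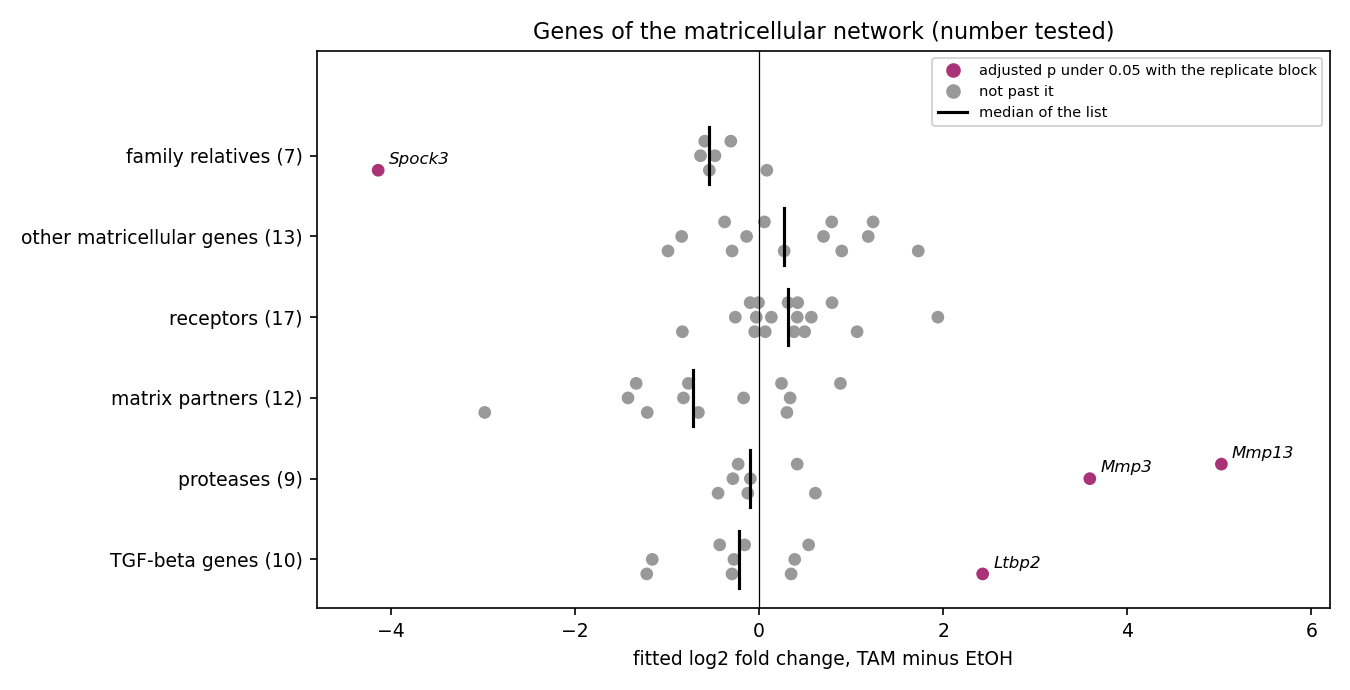
Fitted log2 fold change, TAM minus EtOH, of each tested gene in the 6 lists (points), with the median of each list as a black bar. Purple points passed the test in the blocked fit: Spock3 at −4.14, and Ltbp2, Mmp3 and Mmp13 at 2.43, 3.59 and 5.02.

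Markers of other cell types were set beside these differences, and their part in them was not tested. The 7 smooth muscle and pericyte markers summed to between 28419 and 72306 normalized counts in the EtOH libraries and to between 39068 and 149224 in the TAM libraries. The highest sum was in TAM replicate 2, where Tnc was also highest. Among the EtOH libraries the sum was lowest in replicate 2, where Tnc was the highest of that group. Of the 6 markers of this set that were tested, Myh11 and Cnn1 had every TAM value above every EtOH value, against 9.19% of all genes tested. Their log2 fold changes were 2.26 and 1.89 (adjusted p = 0.156 and 0.270 in limma). Acta2, Tagln, Rgs5 and Cspg4 overlapped between groups, with log2 fold changes of 0.56, 0.65, 1.55 and −0.63. Glial markers, which would accompany Tnr, summed to between 178 and 301 normalized counts after EtOH and between 68.6 and 169 after TAM, with Sox10 at 0.82 or less. Osteoblast markers summed to between 499 and 1361 and between 528 and 624, mostly from Runx2, with Ibsp at 0. Endothelial markers summed to between 92.5 and 241 normalized counts after EtOH and between 24.6 and 45.2 after TAM, without overlap. After EtOH most of that sum was Kdr, a VEGF receptor and the 1 endothelial marker tested. Kdr fell with the block, from between 68.7 and 205 to between 4.84 and 14.0 normalized counts (log2 fold change −3.71, adjusted p = 0.0608 in limma and 0.0488 when blocked). Of the 6 endothelial markers 1, Vwf, had every TAM value above every EtOH value, at 0.55 to 6.65 normalized counts after EtOH and 8.36 to 10.1 after TAM. Keratinocyte, adipocyte and melanocyte markers each summed to at most 338 normalized counts in any library, and 0 of their tested genes had an adjusted p under 0.05 in limma, without or with the block.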

How the data were processed

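Poly(A) RNA of 3 TAM and 3 EtOH samples of MSFs was analysed. The authors aligned reads with TopHat (mm9), counted them over RefSeq genes by HTSeq, and tested in edgeR after TMM scaling. Versions are not given in the sources used here. The signal deposited by the authors is 1 table of normalized counts per gene, not whole numbers, whose scaling it does not state. No count model was therefore run, and counting intervals need the unknown read totals. Smallest values above 0 were 0.36 to 0.89 normalized counts, so low values rest on few reads. Starts in the table were 1 base below those of the mm9 annotation and are given here counted from 1.

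Members and gene lists were chosen with earlier results of these data known. limma 3.58.1 in R 4.3.3 was fitted with an intensity trend on log2(value + 1). In simulated data with 200 changed genes and no shared replicate difference, the fit without the block recovered 97.4% of them. With a shared replicate difference of SD 0.5, set rather than estimated, it recovered 0% without the block and 94.4% with it. That difference was given to same-numbered samples by design, so the recovery cannot show whether the real samples are paired. Same-numbered samples deviated together (Pearson's r across genes 0.24, 0.29 and 0.42 for replicates 1, 2 and 3, against −0.31 to 0.04 for other numbers), so the numbers were taken to pair the samples, although the labels do not say what they share. Levels were divided by the union of exons of the mm9 annotation, whose gene models can differ from those over which the reads were counted. Tables and figures used Python 3.11.15, pandas 2.3.3 and matplotlib 3.10.9. Named genes were all 10 members, genes of each list called without or with the block or else the 2 largest and 2 smallest log2 fold changes, and the 5 genes nearest to Tnn and to Spp1. Alternatives were 3 other scalings, pseudocounts of 0.1 and 10, other filters, the block, library weights and leaving out each library. The planned search of protein letters was not run. One gene of the list of other matricellular genes is not reported here.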

Additional observations from a re-analysis of the deposited data

How the results depend on the processing

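Without the replicate block 20 genes were called higher and 9 lower. The counts were 119 and 73 with the replicate block, 386 and 356 with library weights, 12 and 5 with no filter, and 4 lower with at least 10 normalized counts in every library. Leaving out each library in turn without the block gave 0 to 7 higher and 0 to 10 lower. With the block and 1 replicate number left out of both groups, a setting chosen after seeing the data, they were 62 to 527 and 42 to 397 (123 and 78 without replicate 1). Of the family other than Tnn and Spp1, 1 gene (Tnc) was called with the block and with library weights, 0 with any library left out, and 0 to 2 with the block and a replicate number left out. With the block the lists held 1 relative, 2 proteases and 1 TGF-β gene. With library weights they held 1 relative, 1 other matricellular gene, 2 receptors, 3 matrix partners, 1 protease and 2 TGF-β genes. With the block and a replicate number left out they held 1 relative, 0 to 1 other matricellular genes, 0 to 2 receptors, 0 to 2 matrix partners, 2 to 3 proteases and 1 to 3 TGF-β genes, against 0 of each with single libraries left out without the block. The log2 fold change kept its sign under the alternatives that gave a value for Tnn (3.09 to 5.76, with no value under at least 10 in every library), Spp1 (1.48 to 3.45), Tnc (2.03 to 3.87), Tnxb, Thbs1, Thbs2, Postn and Sparc. The cause of these shifts was not tested. With the longest transcript as length, Postn moved to place 2 and Thbs1 and Thbs2 to places 3 and 4 in the EtOH libraries, and Postn to place 3 and Thbs2 to place 4 in the TAM libraries, since the union of Postn exons is 7.84 kb and its longest transcript 4.36 kb. The precision is that of 3 libraries against 3, and Tnr and Thbs4, at 10.6 normalized counts or fewer, did not pass the filter.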
